A study of Homo sapiens with 21 samples.

Results

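Metallothioneins and copper transporters were followed across paired parental and treatment-resistant cancer cell lines. The 9 genes are MT2A, MT1E, MT1F, MT1G, MT1M and MT1X, which encode metallothioneins, together with the copper importer gene SLC31A1 and the copper pump genes ATP7A and ATP7B. They were found by matching their Ensembl identifiers to gene symbols, and all 9 were present among the 53515 genes of each count table. Gene expression was profiled by RNA sequencing in 21 libraries of 17 cell lines, of which 7 were parental and 10 were resistant. Each resistant line had been derived from its parent by months of culture in rising doses of 1 drug.

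IGROV-1/CDDP was derived with cisplatin from the ovarian line IGROV-1. U10 and U100 were derived with olaparib from the ovarian line UWB1.289. HepG2S1 and HepG2S3 were derived with sorafenib from the liver line HepG2, and PancB1Q and PancB1V with 5-fluorouracil from the pancreatic line Panc 03.27, labelled PancVB. In the lung lines, HCC4006ER was derived with erlotinib from HCC4006P1, HCC4006GR with gefitinib from HCC4006P2, and HCC827GR with gefitinib from HCC827P. The study lists HCC4006P1 and HCC4006P2 under the same cell line identifier. There were 2 libraries of HepG2, of HepG2S3, of HCC4006P1 and of HCC4006ER, against 1 for each of 13 lines, so only HepG2S3 and HCC4006ER can be tested against their parents within a pair. Each line is 1 culture history, and the sources do not say whether the 2 libraries of a line came from separate cultures. The p-values of tests in these 2 pairs therefore measure only the spread between libraries. In the test over parental lines, where libraries are summed, they measure the spread of the change between parental lines.

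Metallothioneins are small cysteine-rich proteins that bind zinc, copper and cadmium, and they can also bind platinum drugs. Their genes lie in a cluster and are switched on by the zinc-sensing factor MTF1 through short metal response elements in their promoters. SLC31A1, also called CTR1, brings copper into the cell and has been studied as an entry route for cisplatin, while the P-type ATPases ATP7A and ATP7B move copper into the secretory pathway and out of the cell and have been studied as exporters of platinum drugs. ATP7B is the main copper pump of hepatocytes.

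On GRCh37 the 6 metallothionein genes lie on chromosome 16, with MT2A at 56642496-56643409, MT1E at 56659387-56661024, MT1M at 56666571-56667893, MT1F at 56691643-56694610 and MT1X at 56716382-56718108 on the plus strand and MT1G at 56700642-56701977 on the minus strand. SLC31A1 lies on chromosome 9 at 115983824-116026772 (plus strand), ATP7A on chromosome X at 77166187-77305892 (plus strand) and ATP7B on chromosome 13 at 52504572-52586261 (minus strand). Metallothionein genes resemble each other, and of all 50-base windows in their annotated transcripts 18.2% of MT1M, 16.4% of MT1G, 7.10% of MT1E, 4.48% of MT2A, 3.73% of MT1X and 1.24% of MT1F also occurred in transcripts of a gene elsewhere in the genome. Reads that map to more than 1 place were left out by the counting, and they made up 19.3% to 31.9% of all that HTSeq counted, on genes or not, so of the 6 metallothioneins MT1M and MT1G have the largest part that such reads could touch. MT1X overlaps a further annotated gene model on the same strand that was not used here, ATP7A overlaps PGK1 on the same strand, and SLC31A1 overlaps CDC26 on the opposite strand.

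Of the metallothionein genes, the bases before the start were available for MT2A and MT1X alone and are shown here. The sequences come from RefSeq (GRCh38.p14) and hold the 250 bases before the annotated start, at chr16:56608334-56608583 for MT2A and chr16:56682220-56682469 for MT1X, both on the plus strand. Capitals mark the core of the metal response element, TGCACNC or TGCGCNC on either strand, with N for any base.
MT2A: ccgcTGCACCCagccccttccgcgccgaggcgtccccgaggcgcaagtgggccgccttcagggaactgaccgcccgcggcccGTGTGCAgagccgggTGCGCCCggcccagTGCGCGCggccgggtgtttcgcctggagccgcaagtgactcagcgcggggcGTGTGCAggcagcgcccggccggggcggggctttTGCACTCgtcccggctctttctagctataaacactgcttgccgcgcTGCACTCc
MT1X: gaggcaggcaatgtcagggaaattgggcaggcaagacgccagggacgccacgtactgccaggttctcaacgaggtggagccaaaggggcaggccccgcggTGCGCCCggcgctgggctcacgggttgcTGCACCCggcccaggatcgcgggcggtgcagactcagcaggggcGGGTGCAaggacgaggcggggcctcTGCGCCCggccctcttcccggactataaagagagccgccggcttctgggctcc

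MT2A held 7 such cores and MT1X held 4. Of all 35116 promoter entries of the same length, 24.8% held at least 1 core, 0.370% held at least 4 and 11 entries held at least 7. None of these letters occurred in the entries of SLC31A1 and ATP7A, and of the 3 entries of ATP7B, 1 held 2 cores and the others held 0. A match is a description of the letters in this window. The promoters of MT1E, MT1F, MT1G and MT1M were not analysed here.

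The libraries held 9851195 to 36639473 counts on genes, with a median of 19498932. In HCC4006P1 replicate 1, no gene past a point within chromosome 7 in alphabetical chromosome order has counts, so SLC31A1 and ATP7A are missing there and HCC4006P1 was taken from replicate 2 for them. Markers of the labelled tissues were read before the comparisons. The liver marker ALB had 16105 and 8261 CPM (counts scaled to a common library size, so that libraries can be compared) in HepG2, 0 in HepG2S1, and 7.44 and 10.9 in HepG2S3, and all 4 liver markers (ALB, AFP, APOA1 and TTR) were lower in HepG2S3 by the edgeR test. KRT7, a duct keratin, stood at 0.628 and 1.43 CPM in HepG2 against 2733 in HepG2S1 and 2739 and 3086 in HepG2S3. Of the other duct markers, MUC1 was also higher in HepG2S3 by the edgeR test (log2 fold change 10.05), while KRT19 was lower (-1.39, adjusted p = 0.0191). The lung factor NKX2-1 was at 0.131 and 0 CPM in HCC4006P1 and 0 in HCC4006ER, against 113 in HCC4006P2 and 56.0 in HCC827P. KRT19, an epithelial keratin, was at 1588 and 1507 CPM in HCC4006P1 and at 2.63 and 1.59 in HCC4006ER, and KRT7 was at 204 CPM in IGROV-1 and at 3 counts in IGROV-1/CDDP. PAX8, a factor of ovarian and tubal carcinoma, read at least 357 CPM in each of the 5 ovarian lines, while WT1 was under 1 CPM in all of them. SFTPB and NAPSA for lung and MUC16 for ovary were also listed as markers and are not reported here. The part of these marker differences in the results below was not tested. For MT2A, MT1X, SLC31A1, ATP7A and ATP7B, counts over pairs are given with and without the 3 pairs from HepG2 and HCC4006P1.

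In the cisplatin pair, MT2A and ATP7B were higher in IGROV-1/CDDP than in IGROV-1, and SLC31A1 and ATP7A were slightly lower. The change is given as the log2 ratio of CPM + 1, with a 95% interval for counting error only (Wilson limits of both counts), because each line had 1 library. This scale understates the change of low genes. MT2A, the most abundant metallothionein, had 1.82 CPM (50 counts) in the parent and 4.83 CPM (122 counts) in the derivative, a log2 change of 1.05 with an interval of 0.71 to 1.37 and a CPM ratio of 2.65. Both values were the lowest of the 17 lines.

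ATP7B stood at 9.82 CPM (270 counts) before and 19.4 CPM (490 counts) after cisplatin selection, a log2 change of 0.91 (interval 0.71 to 1.11). IGROV-1/CDDP had the second highest ATP7B level of the 17 lines. SLC31A1 was at 82.2 CPM in the parent against 70.6 CPM, a ratio of 0.859 and a log2 change of -0.22 (interval -0.30 to -0.13). ATP7A was at 25.8 and 19.5 CPM, a log2 change of -0.39 (interval -0.55 to -0.23). The intervals of these 4 genes did not reach 0, but the spread between replicate cultures of this pair is unknown.

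The other metallothioneins were low (MT1F and MT1X) or undetected (MT1E, MT1G and MT1M) in both IGROV lines. MT1F was at 1.13 CPM in the parent and 1.03 CPM in the resistant line, and MT1X at 0.691 and 1.07 CPM, and for both the counting interval of the change included 0. MT1E, MT1G and MT1M had 0 counts in both lines, which allows at most 0.109 CPM in the parent and 0.119 CPM in the derivative (3 counts). In bulk libraries, fewer expressing cells and less RNA per cell cannot be told apart. Of the 6 genes at 1 CPM or more in either IGROV line, 1 (MT2A) had a log2 change of at least 1 and 0 had one of -1 or less, beside 5.55% higher and 7.21% lower among all 14732 genes at that level. The median change of these 6 genes was 0.11, against -0.06 for all genes.

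**Figure D1:**
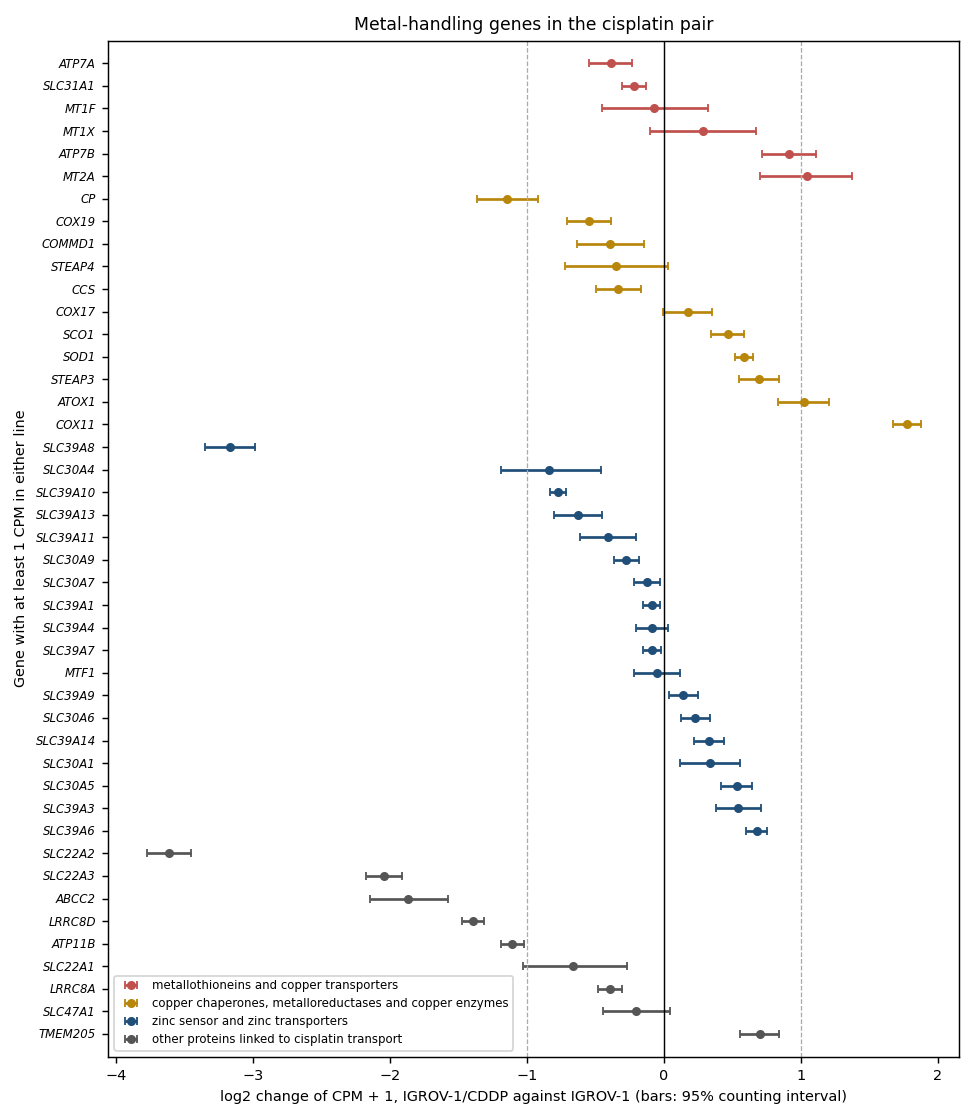
Log2 change of CPM + 1 in IGROV-1/CDDP against IGROV-1 for the studied genes and 3 lists of related genes with at least 1 CPM in either line. Points are single-library changes, bars are 95% counting intervals and dashed lines mark a change of 1 in size. MT2A (1.05) and ATP7B (0.91) sit to the right among the studied genes, and SLC22A2 (-3.62) and SLC39A8 (-3.17) lie farthest to the left.

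Genes of related functions were read in the same pair from lists of copper, zinc and drug transport genes. Their counts stand beside the 5.55% higher and 7.21% lower among all genes. Among copper chaperones, metalloreductases and copper enzymes, 2 of the 11 genes at 1 CPM were higher by at least 1 and 1 was lower, with a median change of 0.18. COX11, which helps to insert copper into cytochrome c oxidase, went from 35.9 to 125 CPM (log2 change 1.78, interval 1.68 to 1.88). CP, which encodes the copper-carrying ferroxidase ceruloplasmin, went from 17.2 to 7.24 CPM (log2 change -1.14, interval -1.36 to -0.92). The zinc list, which holds MTF1 and the 2 families of zinc transporters, had 0 genes higher and 1 lower of 18, with a median of -0.09. That gene was SLC39A8, a zinc and manganese importer, at 83.5 CPM in the parent against 8.39 CPM. MTF1 itself was at 19.9 and 19.3 CPM.

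Other proteins linked to cisplatin transport had the lowest median of these lists, at -1.11, with 0 of 9 higher and 5 lower by at least 1. A fall of this list was not particular to the cisplatin pair. In PancB1Q 0 of 8 were higher and 4 lower (median -0.65), and in PancB1V 0 of 8 were higher and 3 lower (median -0.77). The median was above 0 only in HCC827GR (0.39). SLC22A2, the organic cation transporter OCT2, stood at 151 CPM in the parent against 11.4 CPM (log2 change -3.62, interval -3.77 to -3.46). SLC22A3, the related transporter OCT3, stood at 85.4 and 20.0 CPM (log2 change -2.04, interval -2.18 to -1.91). With 1 library per line, these values compare the libraries and have no replicate check.

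Across all lines, MT2A was the leading metallothionein. Divided by transcript length, it was the highest of the 6 metallothioneins in 17 of 17 lines and made up 51.0% of their summed CPM per kilobase in IGROV-1 and 97.6% in HCC827P, the lowest and highest shares. A share per length assumes reads over the whole transcript. The labels name a stranded mRNA kit for every sample, while the study's methods also name a 3′ kit, for which dividing by length would not apply. In CPM, MT2A was highest in the 2 libraries of HepG2S3 (485 and 522), followed by HCC4006ER (284 and 287), HepG2S1 (253), HCC4006GR (230), HCC4006P1 (196 and 187) and HCC827GR (164). UWB1.289 (138), U100 (127), U10 (126) and PancB1V (122) came next, then HepG2 (82.2 and 118), PancB1Q (72.1), HCC827P (65.5), PancVB (56.5) and HCC4006P2 (41.2). The 5 highest means included 4 resistant lines. The libraries of HepG2 were farther apart than HepG2 was from PancB1V, U10 and U100, so the order of these lines is not beyond the spread.

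**Figure D2:**
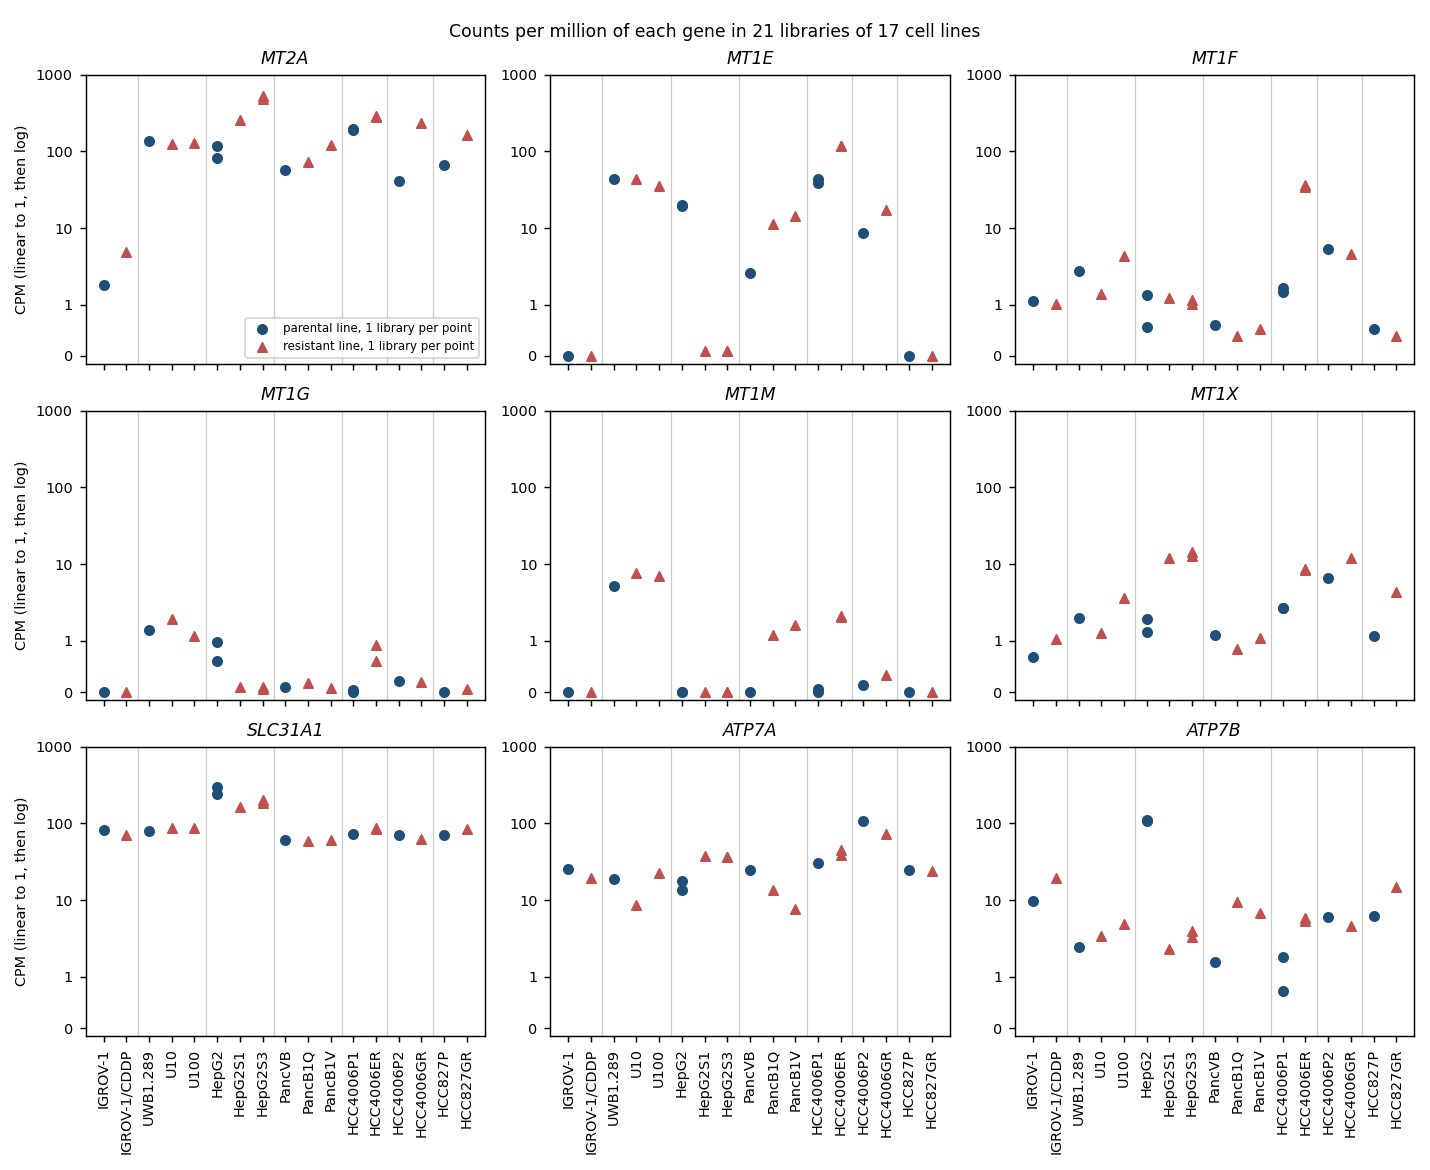
CPM of each of the 9 genes in every library, with parental lines as circles and resistant lines as triangles, on an axis that is linear up to 1 CPM and logarithmic above. Grey lines separate parental lines with their resistant derivatives, and SLC31A1 and ATP7A have no point for HCC4006P1 replicate 1. MT2A ranges from 1.82 to 522 CPM, while SLC31A1 stays between 59.4 and 303 CPM.

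The MT1 genes were each expressed in a part of the lines. MT1E was at 0 counts in IGROV-1, IGROV-1/CDDP, HCC827P and HCC827GR, at 1 count in HepG2S1 and at 3 counts in each HepG2S3 library, and it reached 115 and 118 CPM in HCC4006ER. MT1M was detected with more than 5 counts in UWB1.289 (5.16 CPM), U10 (7.61), U100 (7.02), PancB1Q (1.19), PancB1V (1.61) and HCC4006ER (2.13 and 2.05) and in no other line. MT1G was above 1 CPM in UWB1.289 (1.38), U10 (1.95) and U100 (1.14) alone. MT1F lay between 0.385 and 5.36 CPM in 16 lines and at 36.2 and 34.1 CPM in HCC4006ER. MT1X lay between 0.691 CPM in IGROV-1 and 14.2 CPM in HepG2S3.

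The importer was the most even of the 9 genes. SLC31A1 lay between 59.4 and 87.8 CPM in the 14 lines that do not come from HepG2, and HepG2 had 241 and 303, HepG2S3 205 and 185, and HepG2S1 163 CPM. ATP7A was highest in HCC4006P2 (108 CPM) and HCC4006GR (72.2 CPM) and lowest in PancB1V (7.65 CPM). ATP7B was at 112 and 107 CPM in HepG2, which is 19.3 times the median of the 17 lines, and at 0.718 to 19.4 CPM in every other library. Per kilobase of transcript, ATP7A was above ATP7B in 14 of 17 lines, and ATP7B was above ATP7A in HepG2, PancB1V and IGROV-1/CDDP.

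Genes with the most similar CPM pattern over the 17 lines were named for 4 profiles, out of 13426 protein-coding genes, as a description. Related lines and shared libraries make these points dependent. For the summed metallothioneins, LARP6 (Spearman rho 0.89), ABLIM3 (0.85) and FBN2 (0.84) were most alike, and for SLC31A1 they were SESN2 (0.89), HERPUD1 (0.88) and MKRN3 (0.87). ATP7A was most like ZNF41 (0.92), BBX (0.91) and PIK3C2B (0.88), and ATP7B most like ZNF561 (0.91), ZNRF3 (0.80) and GJB1 (0.80).

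Changes between resistant and parental lines were then computed for every gene in all 10 pairs. MT2A was higher in the resistant line in 8 of 10 pairs and had a log2 change of at least 1 in 6, with a median of 1.07 and the largest value, 2.46, in HCC4006GR (41.2 CPM in HCC4006P2, 230 in HCC4006GR). The exceptions were U10 (-0.13) and U100 (-0.12), which share the library of UWB1.289. Without the 3 pairs from HepG2 and HCC4006P1, MT2A was higher in 5 of 7 pairs and by at least 1 in 4, with a median of 1.05.

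MT1X was higher in 7 of 10 pairs and by at least 1 in 4, namely HepG2S1 (2.29), HepG2S3 (2.47), HCC4006ER (1.35) and HCC827GR (1.30). Without the same 3 pairs it was higher in 4 of 7 and by at least 1 in 1. MT1E moved both ways, by 1.75 in PancB1Q, 2.10 in PancB1V and 1.48 in HCC4006ER, and by -4.23 in both HepG2S1 and HepG2S3. In HepG2S1 its 1 count against 1402 in the HepG2 libraries is a CPM 193 times lower, with an exact counting interval of 34.6 to 7636.

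MT1M had 0 counts in PancVB against 34 in PancB1Q and 40 in PancB1V, which is at least 8.62-fold and 11.7-fold higher with 3 counts as the floor of the PancVB library. On the log2 scale of CPM + 1, MT1F changed by at least 1 in HCC4006ER alone (3.81), and MT1G in no pair. For MT1G this scale understates the change, because its CPM is low. Its counts fell from 36 and 21 in HepG2 to 3 and 2 in HepG2S3. In HCC4006ER its CPM was 32.4 times that in HCC4006P1, with an exact counting interval of 5.38 to 1321. For MT1G, 4 of 10 pairs had at most 3 counts in both lines, as did 4 pairs for MT1M and 2 for MT1E.

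The importer SLC31A1 had log2 changes in CPM between -0.73 (HepG2S1) and 0.25 (HCC4006ER), below 0 in 6 pairs and above 0 in 4. With library sizes scaled by TMM, which sets the bulk of genes to no change, it was below 0 in 4 and above 0 in 6, and at -1.10 in HepG2S1. ATP7A was lower by at least 1 in PancB1V (-1.56, 24.6 CPM in PancVB and 7.65 in PancB1V) and U10 (-1.01) and higher by at least 1 in HepG2S1 (1.19) and HepG2S3 (1.17). Of these 4 changes only that in PancB1V was at least 1 in size with TMM sizes, against -0.97 in U10, 0.85 in HepG2S1 and 0.89 in HepG2S3. ATP7B was higher in 7 of 10 pairs, by at least 1 in PancB1Q (2.02), PancB1V (1.61), HCC4006ER (1.55) and HCC827GR (1.12), and lower in HepG2S1 (-5.05), HepG2S3 (-4.56) and HCC4006GR (-0.34). Over the 10 pairs, ATP7A was lower in 6 and higher in 4. Without the pairs from HepG2 and HCC4006P1, ATP7B was higher in 6 of 7 pairs. In the same 7 pairs, ATP7A was lower in 6 and higher in 1, and SLC31A1 was lower in 4 and higher in 3.

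**Figure D3:**
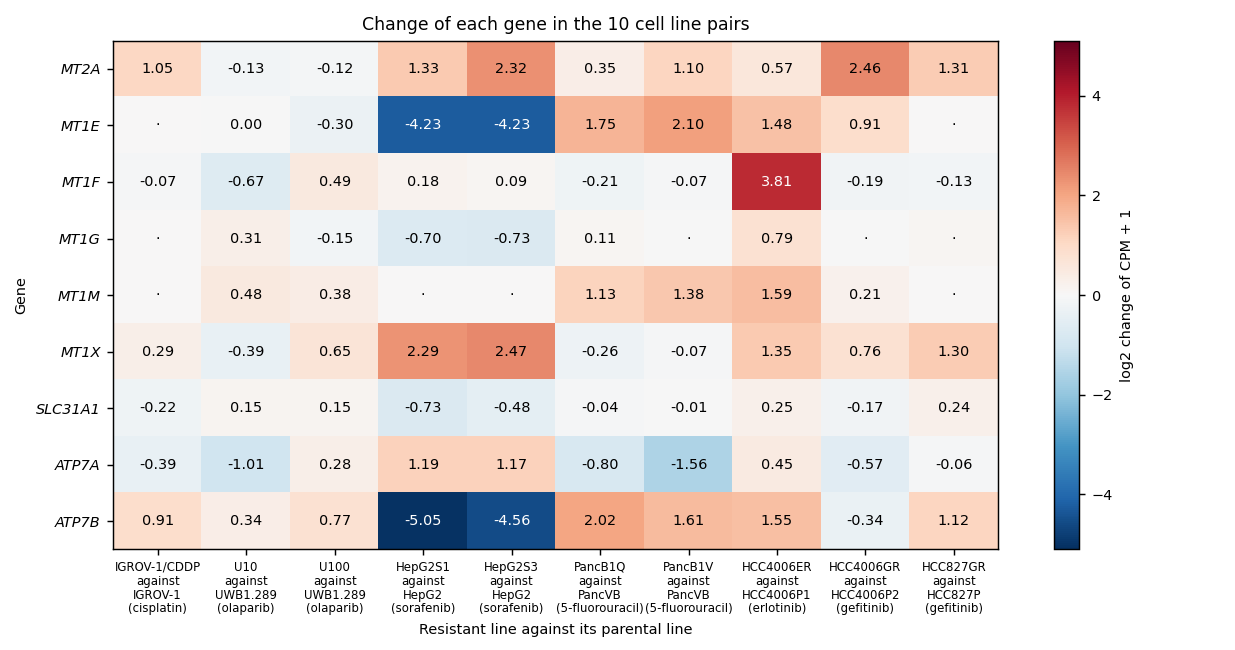
Log2 change of CPM + 1 of each gene (rows) in each resistant line against its parental line (columns), with red for higher and blue for lower in the resistant line. A dot marks pairs with at most 3 counts in both lines. MT2A is red in 8 columns, and ATP7B runs from -5.05 in HepG2S1 to 2.02 in PancB1Q.

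In all, 29 of the 90 changes were at least 1 in size, 23 up and 6 down, and 14 were without the pairs from HepG2 and HCC4006P1. Genes with at least 1 CPM in either line of a pair were counted beside all genes at that level. In the sorafenib pairs, 3 of 7 genes were higher and 2 lower in both HepG2S1 (all genes 25.5% and 18.4%) and HepG2S3 (27.3% and 17.7%). With TMM sizes, 1 was higher and 3 lower in HepG2S1 (all genes 18.6% and 24.3%), where MT2A was at 0.96, and 2 higher and 2 lower in HepG2S3 (22.1% and 21.8%). In the 5-fluorouracil pairs, 3 of 7 were higher and 0 lower in PancB1Q (all genes 6.10% and 9.41%), and 4 of 7 higher and 1 lower in PancB1V (8.89% and 7.25%). In the lung lines, 5 of 8 were higher and 0 lower in HCC4006ER (13.4% and 10.1%), 1 of 7 and 0 in HCC4006GR (7.75% and 7.47%), and 3 of 5 and 0 in HCC827GR (10.6% and 7.67%). In the olaparib pairs, 0 of 9 were higher and 1 lower in U10 (6.27% and 5.11%), and 0 and 0 of 9 in U100 (6.43% and 1.73%). In U10 no gene was lower by at least 1 with TMM sizes, and the counts of the other 7 pairs were the same with these sizes. Pairs with a shared parent share its libraries. The gene set is small and chosen, so these shares are descriptions.

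In CPM, the median of all genes was shifted by 0.25 in HepG2S1 and 0.28 in HepG2S3, by -0.12 in PancB1Q and by 0.12 in HCC4006ER. With TMM-scaled library sizes the shift was -0.08, 0.02, 0.07 and 0.01. None of the 58 changes whose counting interval excluded 0 changed direction with these sizes, while 26 rather than 29 of the 90 changes were at least 1 in size.

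Replicates allow a test in HepG2S3 and HCC4006ER, which used the quasi-likelihood test of edgeR with Benjamini-Hochberg adjustment over all genes. The SE given with each edgeR change is the size of the log2 fold change divided by the square root of the F statistic. It is not a standard error taken from the fit, and it can be too small for genes with few counts in a group, such as MT1E in HepG2S3. In HepG2S3, MT2A, MT1X and ATP7A rose and MT1E, MT1G, SLC31A1 and ATP7B fell, out of 8 genes tested. Over all 16929 genes tested, 31.4% were higher and 32.1% lower in this comparison, beside 3 and 4 of the 8. The median of the 8 log2 fold changes was -0.47, against -0.01 for all genes.

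MT2A rose from 82.2 and 118 CPM in HepG2 to 485 and 522 in HepG2S3 (log2 fold change 2.01, SE 0.20, adjusted p = 7.86e-04). MT1X rose from 1.31 and 1.95 to 14.2 and 12.9 CPM (2.74, SE 0.27, adjusted p = 7.16e-04). MT1E fell from 19.8 and 19.5 CPM to 3 counts in each library (-7.93, SE 0.27, adjusted p = 3.92e-05). MT2A and MT1X moved against MT1E within the same cluster.

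MT1G fell from 36 and 21 counts to 3 and 2 counts (adjusted p = 0.00262), which leaves it near the detection limit. MT1G and MT1E passed the filter on low counts only through HepG2, the line where they are high, so their adjusted p values are not independent of it. MT1F had 1.34 and 0.574 CPM in HepG2 and 1.16 and 1.01 CPM in HepG2S3 and did not pass (-0.14, SE 0.47, adjusted p = 0.811). MT1M had 0 counts in all 4 libraries and was not tested.

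ATP7B, the hepatocyte pump, fell from 112 and 107 CPM to 4.03 and 3.36 CPM (-5.20, SE 0.18, adjusted p = 3.92e-05). ATP7A rose from 13.7 and 17.8 to 36.3 and 36.9 CPM (0.90, SE 0.18, adjusted p = 0.00762), and SLC31A1 fell from 241 and 303 to 205 and 185 CPM (-0.80, SE 0.16, adjusted p = 0.00792). The 2 pumps moved in opposite directions in HepG2S3, beside the loss of the liver markers given above. Without HepG2S3 replicate 1, ATP7A had an adjusted p of 0.0660, and without HepG2S3 replicate 2, ATP7A had 0.0722 and SLC31A1 0.0893, so neither call held at the threshold of 0.05. Over the 8 alternatives run, the adjusted p reached at most 0.0722 for ATP7A and 0.0893 for SLC31A1. HepG2S1, with 1 library, had 253 CPM of MT2A, 2.33 of ATP7B and 37.4 of ATP7A.

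In HCC4006ER, all 6 metallothioneins and ATP7B rose, and 0 of the 9 genes fell. In this comparison 24.1% of 12791 genes were higher and 24.9% lower. MT1M and MT1G passed the filter on low counts only through HCC4006ER, the line where they are high. SLC31A1 and ATP7A came from a fit with HCC4006P1 replicate 2 alone, in which the single library is assumed to vary as the others do, and there 30.8% of 16597 genes were higher and 31.2% lower. The median of the 9 log2 fold changes was 1.55, against 0.01 for all genes.

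MT1F showed a large change, from 1.66 and 1.49 CPM in HCC4006P1 to 36.2 and 34.1 CPM in HCC4006ER (4.37, SE 0.18, adjusted p = 1.32e-05). MT1E rose from 43.7 and 38.9 to 115 and 118 CPM (1.40, SE 0.12, adjusted p = 2.02e-04), and MT1X from 2.67 and 2.72 to 8.35 and 8.53 CPM (1.55, SE 0.20, adjusted p = 0.00118). MT2A rose least, from 196 and 187 to 284 and 287 CPM (0.48, SE 0.11, adjusted p = 0.0114), and without either HCC4006ER library its adjusted p was 0.164 (without replicate 1) or 0.227 (without replicate 2). Over its 9 alternatives, 7 kept the call, and the adjusted p ran from 8.18e-05 to 0.227.

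MT1M had 0 and 1 counts in HCC4006P1 and 42 and 40 in HCC4006ER, a ratio of 88.5 with an exact counting interval of 15.5 to 3539 (adjusted p = 5.42e-04). MT1G had 1 and 0 counts against 12 and 18, a ratio of 32.4 with an interval of 5.38 to 1321 (adjusted p = 0.00442). Because MT1M and MT1G entered the test through the group where they are high, their adjusted p values are not independent of that filter. ATP7B rose from 1.84 and 0.718 to 5.92 and 5.44 CPM (2.03, SE 0.38, adjusted p = 0.00529), with the HCC4006P1 libraries well apart from each other. SLC31A1 had 71.9 CPM in HCC4006P1 and 84.6 and 86.4 CPM in HCC4006ER (0.07, SE 0.12, adjusted p = 0.629), and ATP7A 30.6 against 45.3 and 38.9 CPM (0.28, SE 0.13, adjusted p = 0.0527).

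**Figure D4:**
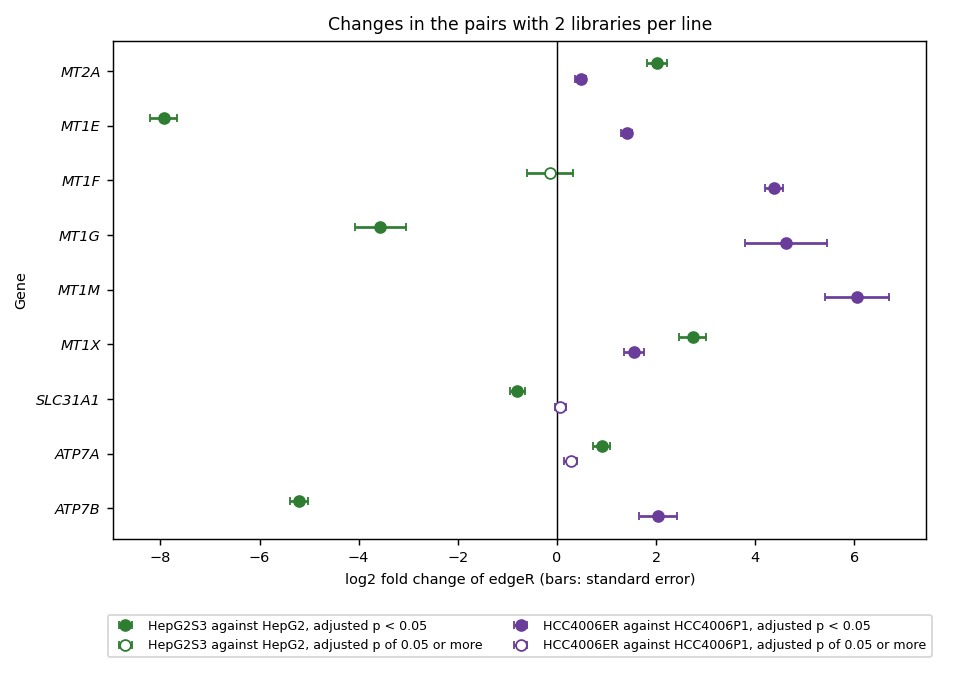
Log2 fold change of each gene by edgeR in HepG2S3 against HepG2 and in HCC4006ER against HCC4006P1. Bars are the SE derived from the F statistic, and open points mark an adjusted p of 0.05 or more. MT1M has no point for HepG2S3, and the points of MT1M and MT1G for HCC4006ER rest on 1 count in HCC4006P1. MT1E (-7.93 and 1.40) and ATP7B (-5.20 and 2.03) lie on opposite sides of 0 in the 2 pairs.

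The difference between these 2 changes was tested as an interaction. It could be fitted for 6 of the 9 genes, and all 6 passed, 2 with a higher and 4 with a lower change in HepG2S3, beside 29.6% and 28.7% of 13819 genes. MT1E (-9.29, SE 0.26, adjusted p = 5.75e-08) and ATP7B (-7.20, SE 0.41, adjusted p = 1.47e-06) fell in HepG2S3 and rose in HCC4006ER. MT2A (1.56, SE 0.25, adjusted p = 7.21e-04) and MT1X (1.22, SE 0.34, adjusted p = 0.0136) rose in both, and more in HepG2S3. MT1X had adjusted p values of 0.0540 without HepG2S3 replicate 1 and 0.0517 without HCC4006ER replicate 1, in a range of 0.00191 to 0.0540 over 11 alternatives. MT1M had no counts in the HepG2 pair, and SLC31A1 and ATP7A lacked a replicate in HCC4006P1.

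Over the 7 parental lines, with the resistant lines of 1 parent summed and the parental line as a block, 0 of the 7 genes tested passed in edgeR, higher or lower. Here 0% of 15847 genes passed in either direction, 722 had an unadjusted p under 0.05, and DESeq2 called 78 genes higher and 21 lower, none of the 9. HCC4006P1 and HCC4006P2 share 1 cell line identifier, so HCC4006 enters as 2 of the 7 parental lines. With these 2 summed to give 6 parental lines, 0 of 16348 genes passed in edgeR. MT2A had a log2 fold change of 1.20 (SE 0.31, unadjusted p = 0.00401, adjusted p = 0.984) and was higher in the resistant lines of 6 of 7 parental lines. MT1X had 1.12 (SE 0.39, unadjusted p = 0.0183, adjusted p = 0.984), and its log2 change averaged over the pairs of a parent was above 0 in 6 of 7. For UWB1.289 the MT1X change was 0.65 in U100 but -0.39 in U10. In U10 and in IGROV-1/CDDP (0.29) its counting interval included 0. ATP7B had 0.78 (SE 0.87), SLC31A1 -0.08 (SE 0.16) and ATP7A -0.14 (SE 0.24). Without HepG2 and HCC4006P1, an alternative chosen after seeing the data, MT2A had 1.20 (adjusted p = 0.873) and MT1X 0.72. Over 12 alternatives the adjusted p of MT2A ran from 0.0565 (DESeq2) to 0.999.

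Related genes were read in the same tests. In HepG2S3, 4 of 12 copper genes rose and 4 fell (median -0.03), close to the 31.4% and 32.1% of all genes, led by CP (353 to 0.389 CPM, -10.15, SE 0.87, adjusted p = 4.50e-04) and the metalloreductase gene STEAP4 (0.338 to 202 CPM, 8.90, SE 0.32, adjusted p = 4.47e-05). Of 21 zinc genes, 4 rose and 10 fell (median -0.48, against -0.01 for all genes), and the largest changes were those of SLC30A10 (20.1 CPM to 2 counts, adjusted p = 4.72e-04), a manganese exporter, and SLC39A4 (111 to 0.687 CPM, adjusted p = 2.59e-05), a zinc importer. Of 9 other cisplatin transport genes, 0 rose and 4 fell (median -0.94), among them ABCC2, an efflux pump of the hepatocyte canalicular membrane (506 to 40.1 CPM, adjusted p = 1.07e-04), and SLC47A1, a cation extruder (110 to 13.8 CPM, adjusted p = 8.67e-05). MT1A was the 1 other metallothionein gene tested and fell from 60 counts to 1 (adjusted p = 0.00120). MT1A and SLC30A10 passed the filter on low counts only through HepG2, the line where they are high. Their adjusted p values are not independent of that filter. The liver markers fell in the same libraries, and CP and ABCC2 are genes of hepatocytes.

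In HCC4006ER, 2 of 11 copper genes rose and 5 fell (median -0.14). Of all genes, 24.1% rose and 24.9% fell, or 30.8% and 31.2% in the fit with 1 HCC4006P1 library, which gave the genes missing from the other. SOD1, the copper-zinc superoxide dismutase, rose from 92.8 to 290 CPM (1.54, SE 0.15, adjusted p = 3.25e-04), and STEAP4 fell from 6.21 to 1.12 CPM (-2.64, SE 0.29) in the fit with 1 HCC4006P1 library. Of 19 zinc genes, 5 rose and 6 fell (median -0.11), near those shares, with the vesicular zinc transporter gene SLC30A4 at 5.52 and 13.0 CPM (1.14, SE 0.20, adjusted p = 0.00410) and SLC30A3 at 0.493 and 1.10 CPM (1.04, SE 0.35, adjusted p = 0.0457). Of 8 cisplatin transport genes, 0 rose and 4 fell (median -0.37), led by SLC47A2 (1.91 to 0.127 CPM, adjusted p = 7.32e-04) and SLC22A3 (14.4 to 1.35 CPM, adjusted p = 1.06e-04). SLC47A2 passed the filter on low counts only through HCC4006P1, the line where it is high. MTF1, the zinc sensor, did not pass in either pair (adjusted p = 0.0521 in HepG2S3 and 0.863 in HCC4006ER).

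Among genes of these lists for which the difference between the 2 pairs could be fitted, the largest differences that passed in each list were those of CP (-10.78, SE 2.18) and COX17 (1.89, SE 0.23), a copper chaperone of mitochondria, of the zinc transporter genes SLC39A5 (-8.03, SE 0.86) and SLC39A8 (5.56, SE 0.24), of ABCC2 (-4.36, SE 0.30) and SLC47A1 (-3.16, SE 0.46), and of MT1A (-4.57, SE 0.94). All 7 had an adjusted p of at most 0.00293 in edgeR. CP, SLC39A5 and MT1A did not pass the filter on low counts in the test of HCC4006ER against HCC4006P1. They entered this fit through HepG2, the line where they are high, so their adjusted p values are not independent of that filter. STEAP4, STEAP2 and SLC39A4 lacked a replicate in HCC4006P1 and were left out, and STEAP4 had 8.90 in HepG2S3 and -2.64 in HCC4006ER. Over the 7 parental lines, 0 of 12 copper, 0 of 18 zinc, 0 of 7 cisplatin transport and 0 of 1 other metallothionein genes passed.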

How the data were processed

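Per library, the authors deposited raw counts on genes from HTSeq, mapped to hg19 and not normalized. Per the labels, Bowtie, TopHat and SAMtools were used on libraries of a stranded mRNA kit. The study's methods also name a 3′ kit and STAR, and do not say which library used which. The methods take CPM from the total count and log2 fold changes from CPM. Letters A and B served as replicate numbers, since the HepG2 and HepG2S3 titles repeat a number.

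Counts were turned into CPM by the total on genes. The total of HCC4006P1 replicate 1 was raised from 18713124 to 22857185, because genes past a point in chromosome 7 hold 18.1% of the counts of replicate 2 and 0 of 1679 such genes with at least 50 counts there has a count in replicate 1. These genes were set to missing. Reads on no gene made up 28.0% to 42.8%. Symbols and coordinates came from GENCODE lifted to GRCh37, which matched 84.3% of the identifiers. The identifiers of MT1L, MT1JP and SCO2 were not matched and are not analysed here.

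Changes used log2 of replicate means with a pseudocount of 1 CPM, and 3 counts as the floor. Libraries of a line differed by more than counting error (chi-square per degree of freedom 5.21 to 88.1), so none was counted as a duplicate. Tests used edgeR 4.0.16 (TMM, filterByExpr, quasi-likelihood, adjusted p under 0.05), and a difference of changes was tested only for genes with at least 3 counts in each pair. DESeq2 1.42.0, RLE sizes, no filter on low counts, other pseudocounts and each library or parental line left out were tried. The tests were tested on simulated data. R 4.3.3 and Python 3.11.15 were used.

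The genes, lists and tests were chosen with earlier results of these data known. All 9 genes are named. From each list, up to 2 genes with the largest change that passed in each test are named, and in the IGROV-1 pair up to 2 with a change of at least 1 and a counting interval away from 0. For pattern likeness, the 3 genes with the highest Spearman correlation among protein-coding genes with a mean of at least 1 CPM are named.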

Additional observations from a re-analysis of the deposited data

Results flagged for a closer look

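The change differed between the sorafenib pair HepG2S3 and the erlotinib pair HCC4006ER, by the edgeR interaction test, for all 6 genes that could be tested. In the same test, 29.6% of 13819 genes were higher and 28.7% lower. On the log2 scale, the change in HepG2S3 minus that in HCC4006ER was 1.56 for MT2A and 1.22 for MT1X, and -9.29 for MT1E, -4.48 for MT1F, -8.20 for MT1G and -7.20 for ATP7B. For MT1F the difference comes with 36.2 and 34.1 CPM in HCC4006ER and no called change in HepG2S3. For MT1G it rests on 1 count in HCC4006P1 and 5 in HepG2S3. Liver markers fell in HepG2S3, where the duct markers KRT7 and MUC1 rose and KRT19 fell. The part of these markers in the differences was not tested.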

How the results depend on the processing

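The number of changes of at least 1 in size was 29 in 10 pairs, and it was 14 in 7 pairs without those from HepG2 and HCC4006P1, an alternative chosen after seeing the data that has fewer pairs. The counts of genes called were 7 in HepG2S3, 7 in HCC4006ER, 6 for the difference and 0 over the parental lines, and they stayed within 1.5 times of these under the other alternatives run. With 1 library left out they ranged from 5 to 7, 5 to 7 and 5 to 6, and with 1 parental line left out the last was 0. Of all genes tested, 31.4% were higher and 32.1% lower in HepG2S3, and 24.1% and 24.9% in HCC4006ER. For the difference these shares were 29.6% and 28.7%, and over the parental lines 0% and 0%. No call turned its direction. With all libraries as deposited, MT1G (adjusted p = 0.0511) and ATP7B (0.0857) lost their calls in HCC4006ER. With the replicate block, 7 genes were called in HepG2S3 and 7 in HCC4006ER. The deviations of same-numbered libraries correlated at 0.0209 for HepG2 with HepG2S3 and at 0.382 for HCC4006P1 with HCC4006ER. The sources do not say what same-numbered libraries share, and the main tests did not pair them. With the replicate block, 3873 of all genes were higher and 3914 lower in HCC4006ER, against 3084 and 3182 without it. In HepG2S3 the numbers were 5279 and 5282 with the block and 5308 and 5436 without it. The depth limits MT1M, MT1G and MT1E, which had at most 3 counts on both sides in 4, 4 and 2 pairs.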
